A study of Mus musculus with 12 samples.

Results

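The BTB zinc finger genes encode DNA-binding proteins with a BTB (also called POZ) domain near the amino terminus and C2H2 zinc fingers near the carboxyl terminus. They were taken from the count table as the protein-coding genes whose symbol is Zbtb followed by digits, with or without a letter after them, together with Hic1, Hic2, Bcl6 and Patz1. Of 44 such records, 43 had at least 100 counts summed over the 12 libraries, out of 21819 protein-coding genes and 52550 genes in all. Zbtb32 fell below the minimum with 42 counts. Zbtb8os and the antisense record Zbtb11os1 share only the prefix and were left out. Taking only symbols without a letter gave 38 genes.

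RNA bound to Ythdf1 or to Ythdf2 was recovered by immunoprecipitation (RIP-seq) from wild-type C57BL/6 mice, from cortex at embryonic day 12.5 and from retina at postnatal day 0. Each tissue has 2 Ythdf1 IP libraries, 2 Ythdf2 IP libraries and 2 input libraries, the inputs being RNA with no antibody step. The only background is the input of the same tissue, since no library with an unrelated antibody was used here. Tissue and age change together between the 2 sets, and the labels do not say whether replicates came from separate animals or litters, so p-values measure the spread between these libraries only. In dissociated tissue of many cell types, fewer cells of a type and less RNA per cell cannot be told apart.

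In many of these proteins the BTB domain forms dimers and docks corepressors such as Bcor, and the fingers choose the DNA site, so that most of the well-studied members act as sequence-specific repressors. Family members set cell identity in blood and brain: Zbtb18 and Zbtb20 act in cortical and hippocampal development, Bcl6 in germinal centre B cells and in cortical neurogenesis, Zbtb16 and Zbtb7b in lymphocyte lineages. Ythdf1 and Ythdf2 are cytoplasmic proteins that bind m6A, a methylated adenosine found mostly in long exons and around stop codons. Ythdf1 has been linked mainly to translation and Ythdf2 to decay of the mRNAs it binds.

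The libraries held 19530226 to 40515980 counts, of which protein-coding genes took between 4.65% (cortex input replicate 1) and 41.1% (cortex input replicate 2). The library labelled cortex input replicate 1 stood apart from its label. Its embryonic cortex markers summed to 425 CPM (counts per 1000000 protein-coding counts), against 5776 in cortex input replicate 2 and 5058 to 7349 in the 4 cortex IP libraries. Its mature synapse markers summed to 7325, against 160 in cortex input replicate 2 and 189 to 260 in the cortex IPs, and its glial markers to 7012, against 29.5 and 36.3 to 57.5. The Spearman correlation of the 2 cortex inputs over protein-coding genes was 0.7996, against 0.951 to 0.974 for the other replicate pairs. Retina markers summed to 2421 to 3313 in the retina libraries and 129 to 876 in the cortex libraries. For this reason each tissue was fitted alone, and cortex counts and named ratios over input are given with and without that library; the counts of members standing above or below both cortex inputs use both.

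Most members have few exons with 1 long exon among them, a structure that the choice by name did not use and that Zfp genes have too. Among the 41 tested in the retina, the longest exon made up a median of 86.1% of the representative transcript, against 54.0% over 12396 protein-coding genes, with a median of 3 exons against 9. Among 323 Zfp genes the longest exon made up a median of 83.6%, with a median of 5 exons. The members ranged from the 1 exon of Zbtb18 to the 19 of Zbtb40, and in Zbtb17 the longest exon made up 14.1%. Their median 3′ UTR was 2446 bases, against 1248. GGACT, the commonest form of the m6A sequence context, was searched on the transcript strand only. It occurred at least once in 97.6% of the members' transcripts, against 93.1% over protein-coding genes, and at a median density of 0.942 per kb against 1.046. A GGACT lay within 200 bases of the stop codon in 31.7% of members and 40.1% of protein-coding genes. Shown here are the GGACT sites nearest the stop codon in the 6 members enriched with both antibodies in the retina, followed by Zbtb9 and Hic2, which had the highest cortex ratios. Each window is 5′ to 3′ on the gene's strand from GENCODE M21 transcripts (GRCm38), written as DNA, with the GGACT nearest the stop codon in capitals; a match is a description of the letters and not a mapped m6A site.
Zbtb14, 3′ UTR, chr17:69389409-69389433, plus strand: ggtggtgttgGGACTcagtttccct
Zbtb18, coding, chr1:177448381-177448405, plus strand: cgccacgagaGGACTcactcggggg
Zbtb21, 3′ UTR, chr16:97949655-97949679, minus strand: tattgaagttGGACTaatgttggtg
Zbtb22, 3′ UTR, chr17:33918871-33918895, plus strand: ttacctcggtGGACTtgtatatatt
Zbtb40, 3′ UTR, chr4:136982814-136982838, minus strand: gctcatgcctGGACTccacccaccc
Zbtb45, 3′ UTR, chr7:13006071-13006095, minus strand: ctgcagtctaGGACTtggactaggt
Zbtb9, coding, chr17:26974979-26975003, plus strand: acttaccactGGACTtacaaatgac
Hic2, coding, chr16:17258404-17258428, plus strand: gaaggtgaagGGACTggggacaggg
The window of Zbtb45 lay 39 bases from the stop codon, that of Zbtb22 82 bases, that of Zbtb21 212 bases and that of Zbtb40 222 bases. Zbtb14 had its nearest GGACT 761 bases away. Hic2 and Zbtb18 had theirs 754 and 280 bases away, in the coding sequence. Zbtb9 had one 13 bases before its stop codon.

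In the retina, Ythdf1 IP libraries held more mRNA of the family than their inputs. Of the 41 members that passed the filter on low counts (Bcl6 and Hic1 did not), 18 were enriched and 2 depleted at an adjusted p below 0.05 in edgeR's quasi-likelihood test. Over all 14380 genes tested, 17.3% were enriched and 20.3% depleted. The members' median log2 ratio of Ythdf1 IP over input was 0.94, against 0.08 over protein-coding genes, and 34 of 41 lay above 0. Both Ythdf1 IP libraries stood above both inputs for 30 members and below them for 2, where 35.1% and 35.3% of all genes did so. Summed over the 43 members, CPM of protein-coding counts were 4211 and 4483 in the Ythdf1 IPs, 3437 and 3360 in the Ythdf2 IPs and 1403 and 1566 in the inputs.

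**Figure D1:**
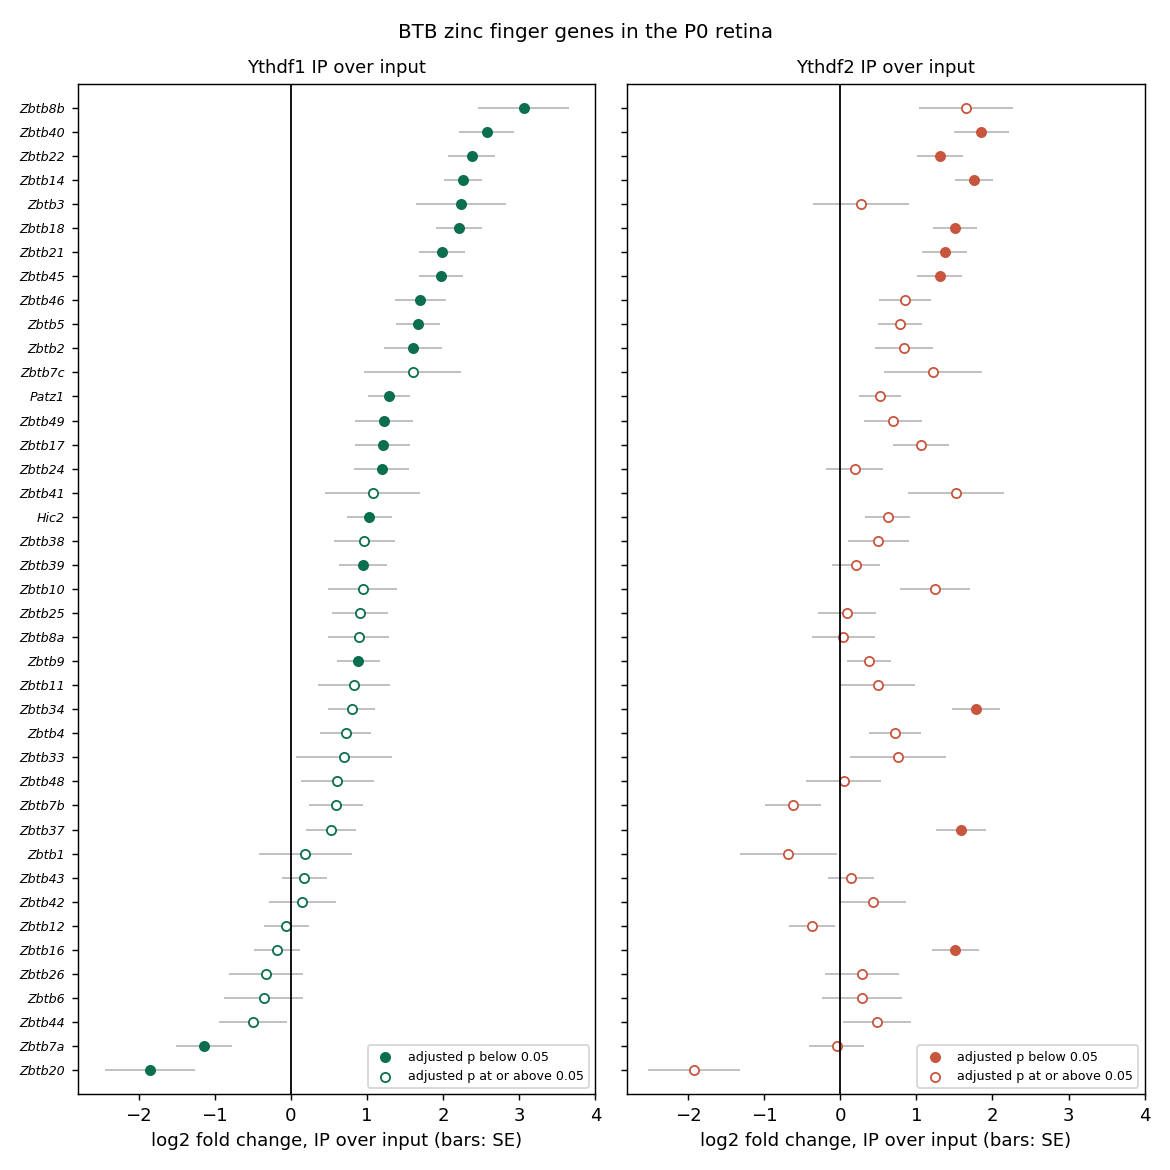
Log2 ratio of Ythdf1 IP over input and of Ythdf2 IP over input in the retina for the 41 members tested, with bars of 1 standard error (2 libraries a group); filled points passed an adjusted p of 0.05. For Ythdf1, 34 of the 41 members lie above 0 and 18 of them passed, and for Ythdf2 36 lie above 0 and 9 passed.

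The enriched member with the smallest p was Zbtb14, also known as ZF5, a repressor that binds GC-rich promoters. Zbtb14 had 39.2 and 38.7 normalised CPM (counts per 1000000 of the TMM-scaled library) in the Ythdf1 IPs, 26.7 and 28.2 in the Ythdf2 IPs and 8.21 and 8.03 in the inputs. Both IP pairs stood above the inputs with no overlap, and the Ythdf1 pair also above the Ythdf2 pair. Its log2 ratio was 2.26 (SE 0.25, edgeR adjusted p = 0.000358) for Ythdf1 and 1.76 (SE 0.25, edgeR adjusted p = 0.00176) for Ythdf2.

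Zbtb18, a repressor needed for neuron differentiation and migration in the cortex, had 54.7 and 74.1 normalised CPM in the Ythdf1 IPs, 41.1 and 38.0 in the Ythdf2 IPs and 11.6 and 16.2 in the inputs. The 3 groups did not overlap. Zbtb18 was enriched with Ythdf1 at a log2 ratio of 2.21 (SE 0.30, edgeR adjusted p = 0.000796) and with Ythdf2 at 1.50 (SE 0.29, edgeR adjusted p = 0.00765). Zbtb22, a finger protein encoded in the mouse MHC region, had 50.9 and 47.7 in the Ythdf1 IPs, 22.2 and 24.9 in the Ythdf2 IPs and 11.8 and 7.16 in the inputs. Its ratio was 2.38 (SE 0.31, edgeR adjusted p = 0.00071) for Ythdf1 and 1.31 (SE 0.30, edgeR adjusted p = 0.016) for Ythdf2. Zbtb22 overlaps Tapbp on the same strand, so reads of the shared stretch are uncertain.

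Zbtb21, Zbtb40 and Zbtb45 completed the set enriched with both antibodies. Both ratios use the same retina inputs, so calls with both are not independent. The share of all genes called with both antibodies, or with a single antibody, was not counted. The split of members by antibody is therefore a list and not a result about the family. Zbtb40, known in human cells for a role at telomeres, had 7.92 and 5.23 normalised CPM in the Ythdf1 IPs, 3.62 and 4.38 in the Ythdf2 IPs and 1.15 and 1.06 in the inputs. Zbtb45, linked to glial differentiation, had 8.65 and 9.28 in the Ythdf1 IPs, 5.32 and 6.00 in the Ythdf2 IPs and 2.36 and 2.20 in the inputs. Zbtb21, a repressor that binds Zbtb14 in human cells, had 10.2 and 10.8 in the Ythdf1 IPs, 7.74 and 5.95 in the Ythdf2 IPs and 2.92 and 2.37 in the inputs. In each of the 3 genes both IP groups stood above the inputs, and the Ythdf1 pair above the Ythdf2 pair. For Ythdf1 the log2 ratios were 2.57 (SE 0.36) for Zbtb40, 1.97 (SE 0.29) for Zbtb45 and 1.99 (SE 0.30) for Zbtb21, and for Ythdf2 they were 1.85, 1.31 and 1.37. Zbtb45 overlaps Trim28 on the opposite strand and Zbtb21 overlaps C2cd2 on the same strand.

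**Figure D2:**
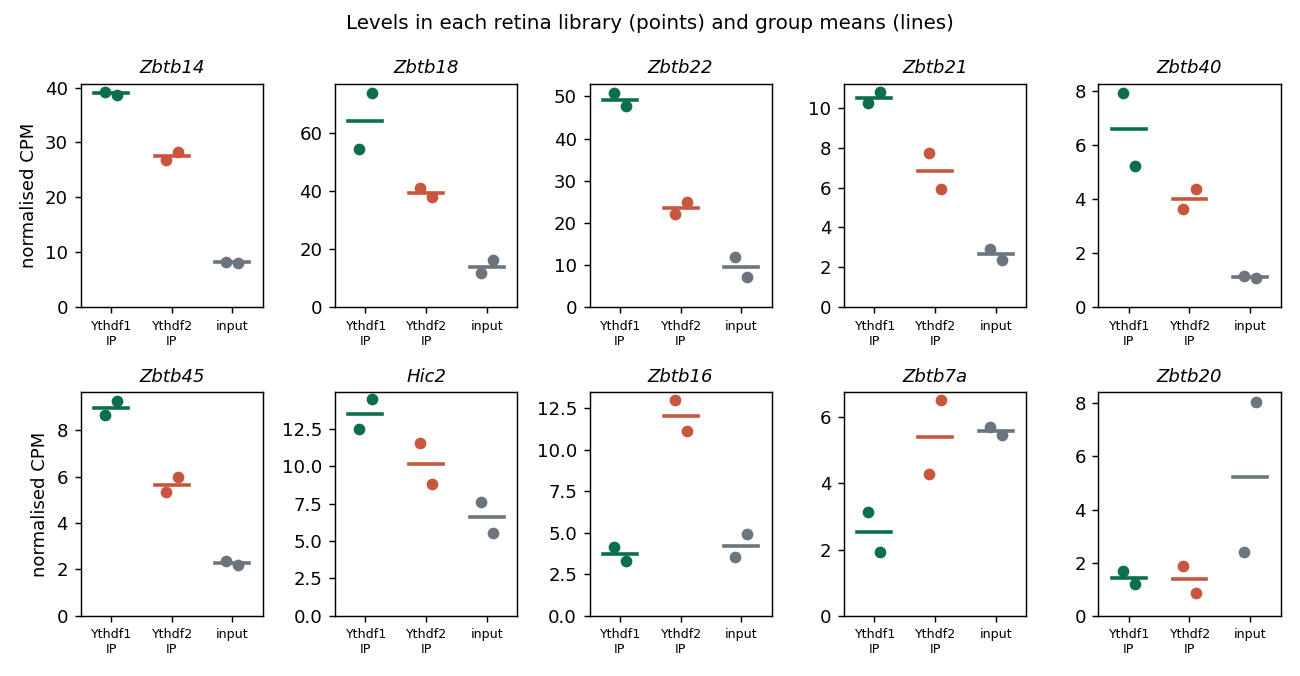
Normalised CPM (vertical axis from 0) in each of the 6 retina libraries for 10 members, with group means as lines and Ythdf1 IP, Ythdf2 IP and input libraries from left to right in each gene. Zbtb14, Zbtb18 and Zbtb22 stand higher in the Ythdf1 IPs than in the Ythdf2 IPs and lowest in the inputs, Zbtb16 is highest in the Ythdf2 IPs, and Zbtb20 is lowest in the IPs.

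The other 12 members enriched with Ythdf1 did not pass with Ythdf2. Zbtb8b had the largest ratio, 3.06 (SE 0.60, edgeR adjusted p = 0.00425), from low counts of 69 and 84 in the Ythdf1 IPs, 15 and 21 in the Ythdf2 IPs and 5 and 12 in the inputs. Zbtb5, a repressor of the cell cycle inhibitor gene Cdkn1a, had 14.8 and 14.7 normalised CPM in the Ythdf1 IPs, 8.49 and 7.48 in the Ythdf2 IPs and 5.37 and 3.901 in the inputs, a Ythdf1 ratio of 1.67 (SE 0.29, edgeR adjusted p = 0.00231). For Zbtb5 the groups were again fully separate in that order. Patz1, which acts in thymocytes, reached 1.29 (SE 0.28, edgeR adjusted p = 0.00652). Zbtb46, which marks classical dendritic cells, reached 1.70 (SE 0.34, edgeR adjusted p = 0.00445). Zbtb1, Zbtb7b and Zbtb16, which have roles in lymphocytes, were not called with Ythdf1. Zbtb17, the Myc partner Miz1, was enriched at 1.21 (SE 0.36), and Zbtb24, mutated in the human immunodeficiency ICF syndrome, at 1.19 (SE 0.36). Zbtb17 lies across from Spen on the opposite strand. The rest were Zbtb2 at 1.60, Zbtb3 at 2.24, Zbtb49 at 1.22, Hic2 at 1.03, Zbtb39 at 0.94 and Zbtb9 at 0.89.

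Against the direction of the family, Zbtb20 and Zbtb7a were depleted. Zbtb20, which specifies hippocampal neurons and promotes astrocyte formation, had 1.68 and 1.21 normalised CPM in the Ythdf1 IPs, 1.87 and 0.875 in the Ythdf2 IPs and 2.39 and 8.05 in the inputs. All 4 IP values lay below both inputs, but the inputs differed by more than the IPs did. Zbtb20 was depleted with Ythdf1 at -1.85 (SE 0.59, edgeR adjusted p = 0.0342) and had -1.92 (SE 0.60, edgeR adjusted p = 0.0517) with Ythdf2. Zbtb7a, a repressor of fetal globin genes, had 3.13 and 1.92 in the Ythdf1 IPs, 4.28 and 6.52 in the Ythdf2 IPs and 5.70 and 5.46 in the inputs. Its Ythdf1 ratio was -1.14 (SE 0.37, edgeR adjusted p = 0.0356) and its Ythdf2 ratio -0.05, with Ythdf2 values on both sides of the inputs. Neither gene was called without Ythdf1 IP replicate 1 or without Ythdf1 IP replicate 2, and 5 members were depleted without retina input replicate 1, where 23.1% of all genes were. None of the 3 members of the Kaiso group, which bind methylated CpG DNA, passed with Ythdf1: Zbtb38 had 0.96, Zbtb4 0.72 and Zbtb33 0.70.

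With Ythdf2 in the retina, 9 of the 41 members were enriched and none depleted, against 9.55% and 10.7% of all genes tested; at an unadjusted p below 0.05, 15 were higher and 1 lower, where 17.9% and 17.2% of all genes were. The median log2 ratio was 0.62, against 0.15 over protein-coding genes, and 36 members lay above 0. Ythdf2 IP libraries stood above both inputs for 22 members and below them for 2, where 32.6% and 27.7% of all genes did so. Apart from the 6 members shared with Ythdf1, the enriched genes were Zbtb34, Zbtb16 and Zbtb37. Zbtb34 had 8.09 and 6.00 normalised CPM in the Ythdf1 IPs, 13.3 and 14.5 in the Ythdf2 IPs and 3.25 and 4.85 in the inputs, a Ythdf2 ratio of 1.78 (SE 0.32, edgeR adjusted p = 0.00529). Zbtb37 had 3.47 and 3.30 in the Ythdf1 IPs, 7.61 and 6.61 in the Ythdf2 IPs and 1.95 and 2.76 in the inputs, a ratio of 1.59 (SE 0.33, edgeR adjusted p = 0.00993). Both were highest with Ythdf2, without overlap. Below 0, Zbtb20 was followed by Zbtb1, needed for lymphocyte development, whose ratio of -0.68 (SE 0.64, edgeR adjusted p = 0.489) came from 1.54 and 0.744 in the Ythdf2 IPs, within the inputs' 0.767 and 2.90 or just under them. Zbtb37 lies across from Gas5, an abundant noncoding host gene on the opposite strand.

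Compared directly in the retina, Ythdf1 IP over Ythdf2 IP was called for Zbtb16 alone, where 2.57% of all genes were higher and 6.56% lower with Ythdf1. Zbtb16 encodes PLZF, a factor of innate-like T cells and spermatogonial stem cells. It had 4.13 and 3.30 normalised CPM in the Ythdf1 IPs, 13.0 and 11.1 in the Ythdf2 IPs and 3.54 and 4.90 in the inputs. The Ythdf1 values overlapped the inputs and the Ythdf2 values stood above both. The log2 ratio of Ythdf1 IP over Ythdf2 IP was -1.69 (SE 0.31, edgeR adjusted p = 0.0122), and that of Ythdf2 IP over input was 1.51 (SE 0.31, edgeR adjusted p = 0.00936). The call of Zbtb16 between the antibodies was lost without any 1 of the 4 retina IP libraries, with log2 ratios of -1.85 to -1.53. Over the family the direction was the other one, with a median of 0.50, against 0.03 over protein-coding genes, and 29 of 41 members above 0. Both Ythdf1 libraries stood above both Ythdf2 libraries for 24 members and below them for 9, where 33.7% of all genes did so in each direction, but no member passed as higher with Ythdf1. Zbtb22 came closest at 1.07 (edgeR adjusted p = 0.0557). Without retina input replicate 1, 16 members were higher and 5 lower with Ythdf1, where 14.6% and 16.2% of all genes were, and without input replicate 2 again 16 and 5, where 14.9% and 16% were. Without any 1 of the retina IPs no member was called, where 0.0518% to 0.148% of all genes were higher and 0.232% to 0.915% lower.

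The number of members called in the retina depended on the IP libraries kept. Without either Ythdf1 IP library, 9 of the 18 enriched members were called again, and without either Ythdf2 IP library 1 of the 9 was. Of all genes, 6.2% and 7.02% were enriched without the first and the second Ythdf1 IP, and 0.893% and 1.57% without the first and the second Ythdf2 IP. Without retina input replicate 1 or 2 all 18 and all 9 were called again, and the counts enriched became 21 and 26 with Ythdf1, where 24.2% and 22.3% of all genes were, and 17 and 18 with Ythdf2, where 19.6% and 19.5% were. Every one of the 18 kept its direction in every alternative run. With a scaling on protein-coding genes the median of all genes moved to -0.20 for Ythdf1, against -0.07 with the scaling on all genes, and the members' median to 0.81.

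Across protein-coding genes the retina ratios varied with transcript structure. The Spearman correlation of the log2 ratio with exonic length over 12425 protein-coding genes was 0.229 for Ythdf1 and 0.369 for Ythdf2, and over the 41 members it was -0.151 and 0.175, values that share libraries and input. Among genes with 1 to 3 exons the median Ythdf1 ratio was 0.90 for 21 members and 0.40 for all 1776 protein-coding genes. Among genes with 4 to 8 exons it was 0.95 for 14 members and -0.33 for 4156 protein-coding genes. With 9 or more it was 0.95 for 6 members and 0.22 for 6464. After removing the trend with length, 15 members were enriched and 2 depleted with Ythdf1 at a median of 0.74, where 17.1% and 18.6% of all genes were. With Ythdf2 the counts were 9 and 1 at a median of 0.36, where 6.56% and 8.33% were.

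Genes related to the family by domain or by partnership were set beside it in the retina. There 17.3% of all genes were enriched and 20.3% depleted with Ythdf1, and 9.55% and 10.7% with Ythdf2. BTB genes without zinc fingers, mostly Klhl and Btbd adaptors of cullin ligases, had 20 of 40 enriched and 2 depleted with Ythdf1, at a median of 1.13, and 13 and 1 with Ythdf2. With Ythdf1 the 3 enriched with the smallest p were Klhl25 at 2.61, Klhl9 at 2.46 and Btbd11 at 3.12 (SE 0.43, edgeR adjusted p = 0.000845). The Zfp genes, finger proteins without the BTB domain for the most part, had 88 of 323 enriched and 19 depleted with Ythdf1, at a median of 0.57, and 34 and 9 with Ythdf2, at 0.21. Zfp521 had 2.77 and Zfp41 2.46 with Ythdf1.

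Of 28 corepressors and partners of the BTB zinc finger proteins, 7 were enriched and 6 depleted with Ythdf1, at a median of 0.24. Of all genes 17.3% were enriched and 20.3% depleted. Enriched with Ythdf1 were Bcor, which binds the Bcl6 BTB domain, at 1.20 (SE 0.25), the deacetylase gene Hdac5 at 1.16 (SE 0.27) and Sin3a at 1.00 (SE 0.27). Depleted were Gps2, a subunit of a corepressor complex, at -1.54 (SE 0.34), Mta3, a Bcl6 partner in the NuRD complex, at -1.48 (SE 0.40) and Hdac2 at -1.35 (SE 0.36). With Ythdf2, 6 of the corepressors and partners were enriched and 2 depleted, where 9.55% and 10.7% of all genes were. Of 4 BTB zinc finger genes with other kinds of symbol, Gzf1 was enriched with Ythdf1 at 0.98 (SE 0.34, edgeR adjusted p = 0.046). Another of them, Bcl6b, passed with Ythdf2 (edgeR adjusted p = 0.0487) from 9 and 0 counts in the retina Ythdf1 IPs, 15 and 13 in the Ythdf2 IPs and 0 and 0 in the inputs, so that its fitted log2 depends on the prior count and is no bound. Among 5 m6A reader genes, Ythdf1 mRNA was enriched in the Ythdf1 IPs at 0.84 (SE 0.27) and Ythdc1 depleted at -1.58 (SE 0.46). Ythdf1 mRNA was about as high with the other antibody. It had 167 and 186 CPM of protein-coding counts in the retina Ythdf1 IPs, 172 and 149 in the Ythdf2 IPs and 86.8 and 68.7 in the inputs.

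In the cortex no gene of 17611 passed in Ythdf1 IP over input, in Ythdf2 IP over input or between the antibodies in the 6-library edgeR fit, so the share called was 0% and no member was called. At an unadjusted p below 0.05, 5 members were higher and 2 lower for Ythdf1, where 3.09% and 5.65% of all genes were, and 10 higher and 0 lower for Ythdf2, where 4.15% and 7.11% were. Between the antibodies it was 0, where 1.07% of all genes were higher and 0.721% lower. DESeq2's Wald test called Zbtb9 and Hic2 as enriched with Ythdf1, these and Hic1 with Ythdf2, and no member as depleted. In that test 0.522% and 1.74% of all genes were enriched and depleted with Ythdf1, and 0.653% and 3.08% with Ythdf2. It called 0 members between the antibodies, where 0.131% of all genes were higher and 0.0341% lower with Ythdf1. The median log2 ratio of the 43 members was 0.62 with Ythdf1, against -0.05 over protein-coding genes, and 1.11 with Ythdf2, against -0.04. Without cortex input replicate 1 the members' median was 0.28 with Ythdf1, against -0.06, with 29 of 43 above 0, and 0.79 with Ythdf2, against 0.01, with 38 above 0. Ythdf2 IP libraries stood above both cortex inputs for 27 members and below them for 0, where 27.5% and 17.6% of all genes did so. For Ythdf1 these were 13 and 3 members, where 21.5% and 14.7% of all genes did so.

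Without the library labelled cortex input replicate 1, 3 members were enriched with Ythdf1 and 1 depleted, where 1.87% and 3.27% of all genes were. With Ythdf2 6 were enriched and 0 depleted, where 2.97% and 6.43% of all genes were. The single remaining input was then assumed to vary like the IP groups. Zbtb22 had 8.501 and 7.46 normalised CPM in the Ythdf1 IPs, 12.7 and 19.5 in the Ythdf2 IPs and 5.56 and 2.84 in the inputs, and was called with Ythdf2 at 2.49 (SE 0.49, edgeR adjusted p = 0.00208), against 1.96 (SE 0.60, edgeR adjusted p = 0.434) with all 6 libraries. Zbtb18 had 84.1 and 26.03 in the Ythdf1 IPs, 80.1 and 92.7 in the Ythdf2 IPs and 36.7 and 16.5 in the inputs, and was called with Ythdf2 at 2.37 (SE 0.64, edgeR adjusted p = 0.0232), against 1.70 (SE 0.81, edgeR adjusted p = 0.46) with all 6. The 2 Ythdf1 values of Zbtb18 lay on either side of cortex input replicate 1, at 36.7, and above cortex input replicate 2, at 16.5. With cortex input replicate 2 left out instead, the only input kept is the library that stood apart from its label. Without cortex input replicate 2 the counts were 15 enriched and 6 depleted with Ythdf1, and 21 and 5 with Ythdf2, where 17.2%, 12.3%, 18.8% and 13.6% of all genes were.

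Zbtb20 shows how far the 2 cortex inputs differ. Zbtb20 had 17.1 and 4.20 normalised CPM in the cortex Ythdf1 IPs, 22.1 and 14.9 in the Ythdf2 IPs and 220.3 and 19.0 in the inputs, the first input being the library that stood apart. Zbtb16 likewise had 1.21 and 2.03 in the Ythdf1 IPs, 2.23 and 2.86 in the Ythdf2 IPs and 22.5 and 2.27 in the inputs. These gave the 2 lowest cortex log2 ratios, -3.48 for Zbtb20 and -2.92 for Zbtb16 with Ythdf1, with only the second input near the IP values. Without cortex input replicate 1 they were -0.84 (SE 0.65, edgeR adjusted p = 0.536) for Zbtb20 and -0.54 (SE 0.56, edgeR adjusted p = 0.665) for Zbtb16, and neither was then among the 3 lowest. Zbtb12, in contrast, had 6.19 and 12.2 with Ythdf1 and 20.7 and 16.7 with Ythdf2, against 0 in cortex input replicate 1 and 36.2 in cortex input replicate 2. Its Ythdf1 ratio without replicate 1 was -2.02 (SE 0.43, edgeR adjusted p = 0.00798), then the lowest of the family, and with all 6 libraries -0.9953 (SE 1.62, edgeR adjusted p = 0.873).

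Zbtb9 and Hic2 had the highest cortex ratios of the family. Zbtb9 had 340 and 114 counts in the cortex Ythdf1 IPs, 360 and 1160 in the Ythdf2 IPs and 0 and 0 in the inputs. In the retina it had 348 and 283 in the Ythdf1 IPs, 141 and 132 in the Ythdf2 IPs and 169 and 143 in the inputs. The cortex IPs thus held counts like those of the retina, and the cortex inputs none. Against a floor of 3 counts in each input, normalised Zbtb9 was at least 37.5-fold higher in the cortex Ythdf1 IPs and at least 46.6-fold higher in the Ythdf2 IPs. Against cortex input replicate 2 alone these bounds were 216-fold and 268-fold. The fitted log2 of 11.57 and 11.88, or 11.78 and 12.10 without cortex input replicate 1, depend on the prior count and are no bound. Of 4892 protein-coding genes with at least 100 counts in each cortex IP, 2 had 0 counts in cortex input replicate 2, 136 in replicate 1 and 1 in both.

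Zbtb9 has to be read with Ggnbp1, whose record in the authors' annotation may run over it on chromosome 17. In GENCODE M21 no overlapping gene with at least 50 counts was found for Zbtb9. The lengths implied by the deposited FPKM were 0.795 times the GENCODE M21 exonic length for Zbtb9 and 1.25 times for Ggnbp1, relative to the ratio of the other genes. Ggnbp1 had 18 and 23 counts in the cortex Ythdf1 IPs, 39 and 75 in the Ythdf2 IPs and 14 and 483 in the inputs. Its counts were thus highest in cortex input replicate 2, where Zbtb9 had none. In the retina Ggnbp1 had 18 and 16 in the Ythdf1 IPs, 21 and 18 in the Ythdf2 IPs and 34 and 30 in the inputs. Summed, the pair had 10.9 and 9.29 normalised CPM in the cortex Ythdf1 IPs, 9.39 and 14.8 in the Ythdf2 IPs and 2.05 and 6.72 in the inputs.

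The sum still stood above both cortex inputs in all 4 IPs, but at a log2 ratio of 1.17 (SE 0.68, edgeR adjusted p = 0.606) for Ythdf1 and 1.43 (SE 0.68, edgeR adjusted p = 0.461) for Ythdf2. In the retina the sum had 8.89 and 8.59 in the Ythdf1 IPs, 6.74 and 6.57 in the Ythdf2 IPs and 5.99 and 4.82 in the inputs. Its retina Ythdf1 ratio was 0.69 (SE 0.28, edgeR adjusted p = 0.0747), so that the retina call of Zbtb9 did not hold for the pair.

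**Figure D3:**
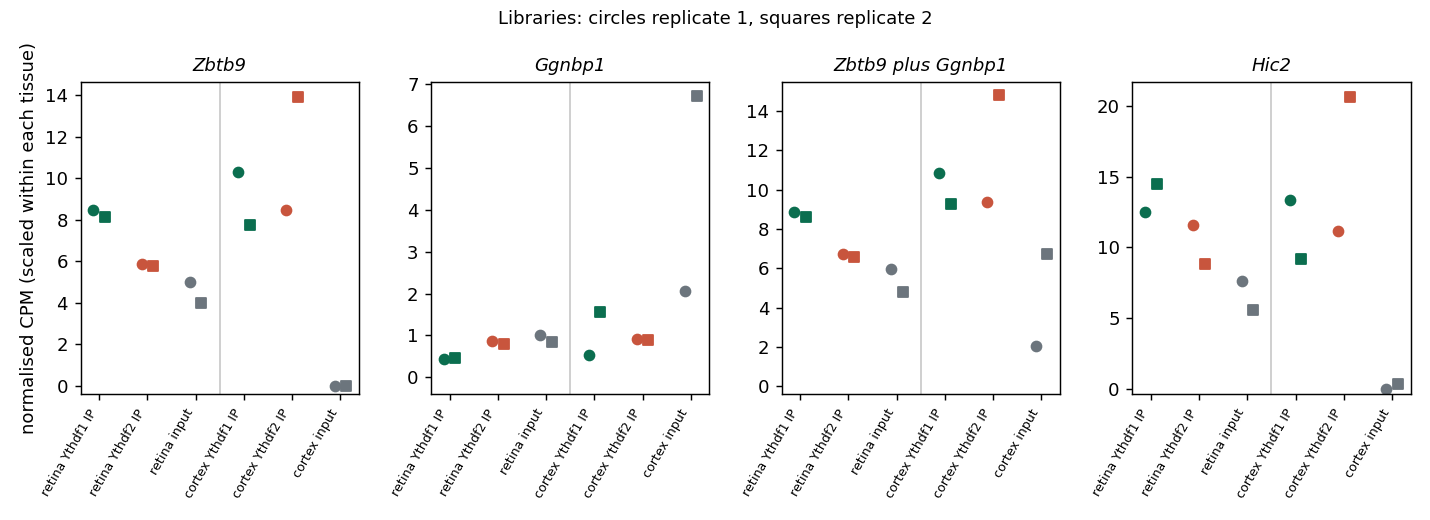
Levels (normalised CPM) of Zbtb9, Ggnbp1, their sum and Hic2 in each of the 12 libraries, with Ythdf1 IP, Ythdf2 IP and input from left to right within each tissue. In the cortex Zbtb9 is at 0 in both inputs while Ggnbp1 is highest in cortex input replicate 2, and Hic2 lies between 9.15 and 20.6 in the IPs and at 0 and 0.348 in the cortex inputs.

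Hic2, a zinc finger repressor related to the tumour suppressor Hic1 and known in human red cell precursors for repressing BCL11A, showed a cortex pattern like that of Zbtb9. It had 440 and 135 counts in the cortex Ythdf1 IPs, 473 and 1720 in the Ythdf2 IPs and 0 and 25 in the inputs. In the retina the counts were 514 and 505 in the Ythdf1 IPs, 278 and 201 in the Ythdf2 IPs and 259 and 200 in the inputs. No overlapping gene with at least 50 counts was found for Hic2. Its cortex log2 ratio was 5.50 (SE 0.97) with Ythdf1 and 6.00 (SE 0.99) with Ythdf2 in the 6-library fit, which did not pass. Without cortex input replicate 1 it was 4.99 (SE 0.62, edgeR adjusted p = 5.46e-05) and 5.49 (SE 0.63, edgeR adjusted p = 1.41e-05). In the retina Hic2 had 1.03 (SE 0.29, edgeR adjusted p = 0.0224) with Ythdf1 and 0.62 (edgeR adjusted p = 0.165) with Ythdf2.

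Hic1 was rarer, at 80 and 42 counts in the cortex Ythdf1 IPs, 83 and 263 in the Ythdf2 IPs and 0 and 29 in the inputs. It too stood above both inputs in every cortex IP, and without cortex input replicate 1 its ratio was 2.67 (SE 0.66, edgeR adjusted p = 0.019) with Ythdf1 and 2.65 (SE 0.65, edgeR adjusted p = 0.0117) with Ythdf2. With all 6 libraries these were 3.26 (SE 1.01) and 3.22 (SE 1.00) and did not pass. In the retina Hic1 had between 0 and 5 counts a library. Zbtb49 had 4.10 and 0.746 normalised CPM in the cortex Ythdf1 IPs, 3.20 and 4.49 in the Ythdf2 IPs and 0 and 0.542 in the inputs, and was called with Ythdf2 without that input at 2.81 (SE 0.81, edgeR adjusted p = 0.0425), against 3.43 (SE 1.20, edgeR adjusted p = 0.434) with it. Zbtb42 had a 6-library Ythdf1 ratio of 3.77 in the cortex, from cortex inputs of 0 and 7 counts, and 3.38 (SE 1.22, edgeR adjusted p = 0.116) without the first of these. It was not called in either fit.

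Differences between the tissues were tested in a fit of all 12 libraries. Only Zbtb9 passed, with a retina minus cortex difference in log2 enrichment of -10.15 (SE 1.03, edgeR adjusted p = 0.0178) for Ythdf1 and -11.08 (SE 1.02, edgeR adjusted p = 0.00686) for Ythdf2. Over all 18458 genes 0.00542% and 0.0325% were lower in the retina. These sizes rest on the cortex inputs at 0 and depend on the prior count. The Ythdf1 call was lost when any 1 of the 2 cortex Ythdf1 IPs or the 6 retina libraries was left out, and the Ythdf2 call without either retina Ythdf2 IP. For Zbtb9 summed with Ggnbp1 the differences became -0.34 (edgeR adjusted p = 0.881) and -1.11 (edgeR adjusted p = 0.589). Without cortex input replicate 1, Hic2 also differed, by -3.84 (SE 0.64, edgeR adjusted p = 0.00441) for Ythdf1 and -4.87 (SE 0.65, edgeR adjusted p = 0.00145) for Ythdf2. In that fit Zbtb40 at 2.31, Zbtb14 at 2.09 and Zbtb12 at 2.08 were higher in the retina for Ythdf1, where 1.11% of all genes were higher and 2.41% lower; for Ythdf2 these shares were 0.444% and 0.473%.

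The balance between the antibodies, which needs no input, had family medians on either side of 0 in the tissues. In the cortex 38 of 43 members had a log2 ratio of Ythdf1 IP over Ythdf2 IP below 0. Their median was -0.55, against -0.07 over protein-coding genes. In the retina 29 of 41 members lay above 0, at a median of 0.50, against 0.03 over protein-coding genes. Both cortex Ythdf1 libraries stood above both Ythdf2 libraries for 2 members and below them for 18, where 19.6% and 22.9% of all genes did so. No cortex difference passed by itself. The difference between the tissues was fitted on the 8 IP libraries, a test added after the 2 medians had been seen. Retina minus cortex, 4 of 43 members were higher and 0 lower, where 3.32% and 5.54% of 17055 genes were. The median difference was 0.99, against 0.12 over protein-coding genes, and 36 members lay above 0.

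**Figure D4:**
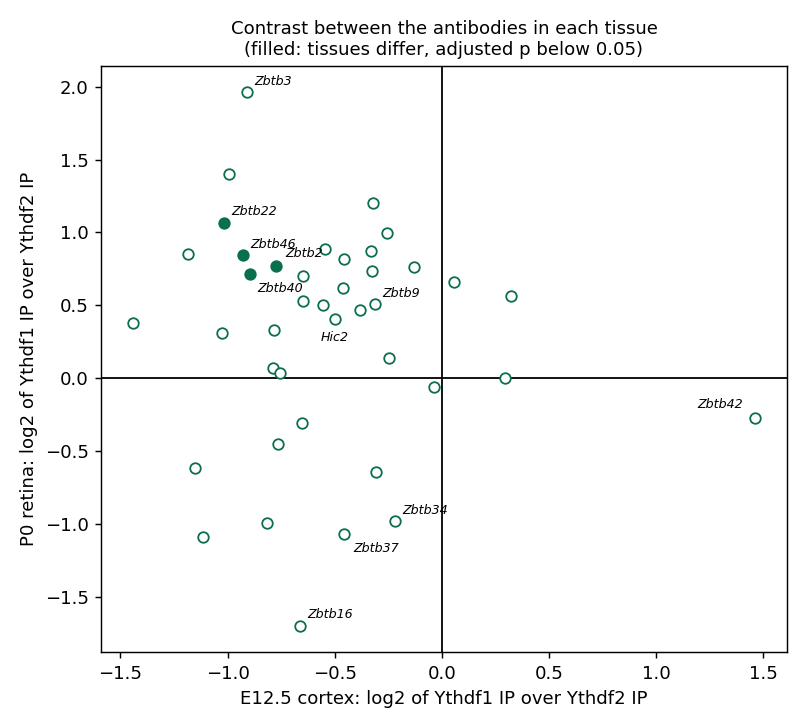
Log2 ratio of Ythdf1 IP over Ythdf2 IP in the retina (vertical axis) against the same in the cortex (horizontal axis), 1 point for each of the 41 members tested in both tissues. Most points lie left of 0 and above 0, and the 4 members whose tissue difference passed in the fit of the 8 IP libraries are filled.

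Zbtb22 had the firmest tissue difference, 2.17 (SE 0.36, edgeR adjusted p = 0.00474), with the Ythdf1 IPs above the Ythdf2 IPs in the retina and below them in the cortex in the values already given. It was called in 12 of 12 settings. Zbtb46 had 7.70 and 8.79 normalised CPM with retina Ythdf1, against 4.53 and 4.64 with retina Ythdf2, and 3.01 and 2.37 with cortex Ythdf1, against 3.98 and 6.29 with cortex Ythdf2, a difference of 1.86 (SE 0.42, edgeR adjusted p = 0.0196). Zbtb2, a repressor of Cdkn1a in human cells, had 14.1 and 14.4 with retina Ythdf1, against 8.32 and 8.40 with retina Ythdf2, and 3.795 and 5.56 with cortex Ythdf1, against 6.398 and 9.53 with cortex Ythdf2, a difference of 1.65 (SE 0.39, edgeR adjusted p = 0.0228). Zbtb40 had 8.56 and 5.35 with cortex Ythdf1, against 10.96 and 14.97 with cortex Ythdf2, and differed by 1.70 (SE 0.44, edgeR adjusted p = 0.0331). In these 4 genes the 2 antibodies' libraries did not overlap in either tissue. Zbtb46, Zbtb2 and Zbtb40 were called in 6 to 7 of 12 settings. The count of 4 became 15 without cortex Ythdf1 IP replicate 1 and 16 without cortex Ythdf2 IP replicate 1, where 6.55% and 5.58% of all genes were higher. It was 1 without cortex Ythdf2 IP replicate 2, where 0.787% were, and 1 without any 1 of the 4 retina IPs, where 0.255% to 0.499% were. Of the other lists, the Zfp genes had 36 of 351 higher and 4 lower at a median of 0.79, the BTB genes without fingers 7 of 43 and 1 at 0.68, and the corepressors 0 of 28 and 2 at -0.14.

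Summed over the family, the cortex libraries had 2537 and 1649 CPM of protein-coding counts in the Ythdf1 IPs, 3048 and 3709 in the Ythdf2 IPs and 1828 and 1465 in the inputs. The higher input, at 1828, was cortex input replicate 1, the library that stood apart from its label. The Ythdf1 values fell on either side of it and above cortex input replicate 2, and the Ythdf2 values above both inputs. In the retina the order was Ythdf1 IP, Ythdf2 IP and input, with no overlap.

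**Figure D5:**
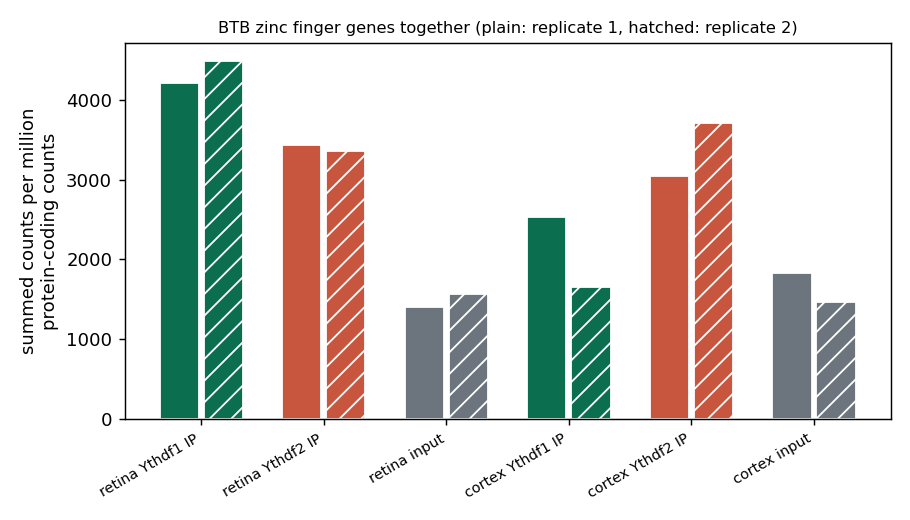
Summed counts of the 43 members as CPM of protein-coding counts in each of the 12 libraries, with Ythdf1 IP, Ythdf2 IP and input from left to right within each tissue. The retina Ythdf1 IPs are highest at 4211 and 4483, and the 4 inputs lie between 1403 and 1828. The input at 1828 is cortex input replicate 1, the library that stood apart from its label.

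Levels per length were ranked among the members by deposited FPKM, with no comparison to other genes. Zbtb12 had the highest mean deposited FPKM over the 4 inputs, 11.6, with 5.66 and 4.40 in the retina inputs and 0 and 36.3 in the cortex inputs, a mean that 1 library decides. Zbtb18 followed at 2.64, with 1.53 and 2.49 in the retina and 1.10 and 5.44 in the cortex. Patz1 came next at 2.52, with 1.32 and 1.21 in the retina and 0.215 and 7.35 in the cortex. For both genes cortex input replicate 2 held the highest value. By the mean of the retina inputs alone, Zbtb22 at 3.07 and Zbtb39 at 2.03 followed Zbtb12. Zbtb18 at 2.01 and Patz1 at 1.27 came after them. Zbtb18 and Patz1 did not differ beyond the spread of these inputs. The lowest were Zbtb7c at 0.0769, Hic1 at 0.0603 and Zbtb8b at 0.0345. Zbtb12, the most abundant per length, had a retina Ythdf1 ratio of -0.06, with 12.02 and 10.5 normalised CPM in the Ythdf1 IPs, 8.11 and 9.98 in the Ythdf2 IPs and 14.0 and 9.36 in the inputs, groups that overlapped.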

How the data were processed

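Per the labels' protocols, TruSeq Stranded libraries were made from 100 ng of input or eluted RNA after EZ-Magna immunoprecipitation. STAR 2.5, HTSeq and GRCm38 are listed per the submitters' processing notes; for the annotation release and the strand setting, nothing is given in the sources used here. The deposited tables hold raw read counts per gene and the authors' FPKM; the FPKM were used for levels per length and as an alternative.

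Genes were filtered with filterByExpr (minimum count 10, total 15), scaled by TMM and tested with edgeR 4.0.16 (quasi-likelihood, robust; R 4.3.3) within each tissue (6 libraries, 3 residual degrees of freedom) or, for tissue differences, over 12 libraries. P-values were adjusted by Benjamini-Hochberg over all genes and called below 0.05. Standard errors were derived from the log2 ratio and its F. The code was tested on simulated counts. Alternatives were other scalings, no filter, DESeq2 1.42.0, limma 3.58.1 on log2(FPKM + 1), removal of the length trend, a replicate block and leaving out each library. A fit of 11 libraries and the fit of the 8 IP libraries were added after seeing the data. GENCODE M21 matched 52403 of 52550 genes.

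Members, lists and tests were chosen with earlier results of these data known. Named were Zbtb9 with Ggnbp1, Hic2, up to 8 members called per comparison and direction, the 4 highest and 2 lowest ratios per comparison with input, up to 4 called between antibodies or tissues, the 3 highest and 3 lowest mean FPKM over the inputs, and up to 3 genes per list and direction. Same-numbered libraries did not deviate together (correlations of -0.0299 to 0.0964), so no block entered the tests.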

Additional observations from a re-analysis of the deposited data

Results flagged for a closer look

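The difference of log2 enrichment between the tissues passed its test for Zbtb9, at -10.15 for Ythdf1 and -11.08 for Ythdf2 (retina minus cortex). Both values rest on counts of 0 in both cortex inputs. For Zbtb9 summed with Ggnbp1 the differences were -0.34 and -1.11, and neither passed.

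In the fit of the 8 IP libraries, the ratio of Ythdf1 IP over Ythdf2 IP differed between retina and cortex for Zbtb22 by 2.17, for Zbtb46 by 1.86, for Zbtb40 by 1.70 and for Zbtb2 by 1.65, each higher in the retina. Tissue and age change together here and cannot be told apart.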

How the results depend on the processing

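With 2 libraries a group, and 1 cortex input that goes against its label, the counts of called members depend on single libraries. The share of all genes called also changed between settings, as the values given above for libraries left out show. Counts in this section stand without that share, so a change in a count is not by itself a change in the family. Leaving out each library in turn gave 9 to 26 members enriched (18 with all libraries) and 0 to 5 depleted (2) for Ythdf1 in the retina, 1 to 18 enriched (9) and 0 to 2 depleted (0) for Ythdf2 in the retina, and 0 to 21 called between the antibodies there (1). In the cortex it gave 0 to 15 enriched and 0 to 6 depleted for Ythdf1, and 0 to 21 and 0 to 5 for Ythdf2, where all libraries gave 0 each. Tissue differences ran from 0 to 13 for Ythdf1 and 0 to 10 for Ythdf2 (1 each), and the fit of the 8 IP libraries from 1 to 16 (4). The joint fit of 12 libraries gave 7 enriched and 0 depleted for retina Ythdf1, 0 enriched for retina Ythdf2, 0 between the retina antibodies, and 1 and 2 enriched for cortex Ythdf1 and Ythdf2; the fit of 11 libraries, added after seeing the data, gave 0 depleted for retina Ythdf1 and 2 between the antibodies. In that fit each retina group kept its 2 libraries. As many members were then enriched with retina Ythdf1 and with retina Ythdf2 as in the tissue fit. Among runs with 1 library left out, the highest counts for the cortex and the tissue differences came without cortex input replicate 2. The only cortex input was then the library that goes against its label. The cause of the changes between fits was not tested.

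Without the filter, retina Ythdf1 had 0 depleted members and the retina antibodies 5 calls; cortex Ythdf1 had 2 enriched and 2 depleted, cortex Ythdf2 3 enriched, and the tissue differences 3 each. DESeq2 gave 1 depleted with retina Ythdf2, 4 between the retina antibodies, 2 and 3 enriched with cortex Ythdf1 and Ythdf2, 3 for each tissue difference and 9 in the 8 IP libraries. Limma on FPKM gave 0 depleted with retina Ythdf1, 3 between the antibodies and 0 for each tissue difference. DESeq2's size factors, the scaling on protein-coding genes and the removal of the length trend each gave 1 depleted with retina Ythdf2, and the first and the last of these gave 2 between the antibodies. Symbols without a letter left 1 depleted with retina Ythdf1. Summing Zbtb9 with Ggnbp1 left 0 tissue differences for either antibody.

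Under the replicate block the tissue difference for Ythdf1 had 0 calls (1 without it), retina Ythdf2 had 11 enriched, and the block moved no other count by over 1.5 times. The cortex ratio of Ythdf1 IP over Ythdf2 IP was -0.50 for Hic2 and -0.31 for Zbtb9, neither called in any setting; leaving out each library it ran from -0.85 to 0.0133 for Hic2 and from -0.60 to 0.0884 for Zbtb9, and the sign changed without cortex Ythdf2 IP replicate 2.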
